A study of Homo sapiens with 20 samples.

Results

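The response of CEM cells to the NEMO-binding domain (NBD) peptide was read from 4 of the 20 arrays of the series, chosen by their titles: 2 arrays of CEM given a control peptide and 2 of CEM given NBD. CEM, labelled JCRB0033 [CEM], is an established human leukaemia line of T cell origin (T-ALL), and both groups were treated for 16 h. The other 16 arrays hold T-ALL1, KOPT-K, HPB-ALL and DND41, with 2 arrays of either peptide for each line. They served to estimate the spread and to set the CEM response beside that of other T-ALL lines. The labels give the dose as 100 µM in some fields and 100 mM in others, so nothing here rests on it. No label states that arrays of the same peptide were grown as separate cultures, so the p-values below cover the spread between arrays alone, and that spread may be technical. Each group is 1 cell line, and the arrays carry no direct readout of NF-kB activity.

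Canonical NF-kB signalling runs through the IkB kinase, in which the regulatory subunit NEMO (IKBKG) holds the catalytic subunits IKKα (CHUK) and IKKβ (IKBKB). The kinase marks IkBα (NFKBIA) for degradation, which frees NF-kB dimers to enter the nucleus, and NFKBIA is itself a target gene that closes the loop. The NBD peptide carries the stretch of the catalytic subunits that binds NEMO, and blocks their assembly. In T-ALL, Notch signalling through HES1 has been linked to NF-kB through the deubiquitinase CYLD. The comparison asks which transcripts differ between cells given NBD and cells given the control peptide. Whether the kinase was blocked in these cells was not measured.

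The CEM arrays had median intensities of 30.33 to 31.56 and correlated at 0.9934 to 0.9975 with each other over the 13787 genes tested. The second control array stood apart. The first control array correlated better with the first NBD array (0.99636) than with the second control array (0.99598), while the NBD arrays correlated at 0.99753. Of 11 T cell markers with a probe set, among them CD3D, LCK, GATA3 and BCL11B, all 11 were at or above the filter intensity of 31.96 on all 4 arrays. Their summed intensity was 24840 to 24880 with control and 21711 to 22822 with NBD. All 11 changes lay below 0, as did 7335 of all 13787 genes tested, and none passed the limma test. Of the 11, 3 had an unadjusted p under 0.05, as did 1851 of all 13787 genes tested, or 13.4%. All 4 arrays are of the CEM line read in bulk, so fewer cells expressing a marker and less RNA per cell cannot be told apart. Of the B cell markers, MS4A1 and EBF1 were below the filter on all 4 arrays, and the summed intensity of the 9 measured was 502.2 to 503.7 with control and 479.6 to 492 with NBD. The 8 myeloid markers summed to 146.7 to 147.7 and 148.9 to 151.4, with 7 of 8 below the filter, CD14, LYZ and MPO among them. The 11 fibroblast and epithelial markers summed to 376.3 to 402.1 and 388 to 406.8, and 6 were below the filter. As a measure of RNA integrity, the actin signal at the 3′ end exceeded that at the 5′ end by 1.44 and 1.45 (log2) on the control arrays and by 1.71 and 1.81 on the NBD arrays. That of GAPDH was 0.32 and 0.29 against 0.36 and 0.40. Control and NBD arrays were separate in either measure, so the part of RNA integrity in the results cannot be told apart from that of the peptide and was not tested. A fit with the actin difference as a covariate is quoted where it bears.

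After 16 h with NBD, 54 genes were higher in CEM (0.392% of 13787 tested) and 102 were lower (0.74%), together 1.13%, at a limma adjusted p under 0.05. Changes are log2 intensity with NBD minus control, given with the standard error of the fit (2 arrays per group, spread shared over the 10 groups of all lines). Metallothioneins, enzymes of cholesterol synthesis, the AP-1 subunit JUN and ribosomal RNA precursor led the rises, and ID1 and ID3, inhibitors of helix-loop-helix factors, led the falls. The median size of the called changes was 0.57 for rises and 0.56 for falls. The last genes inside the threshold, CLEC11A and SUSD3, both lower, had an adjusted p that rounds to 0.05. Past 2-fold lay 10 rises and 7 falls, and past 1.5-fold 25 and 46.

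The calls depended on single arrays. Without control array 2, 24 genes were higher and 16 lower, and without NBD array 1, 21 and 21. Without NBD array 2 the counts were 24 and 20, and without control array 1 they were 89 and 128. Control array 2 was the control farther from the NBD arrays for 81 of the 102 lower genes and for 22 of the 54 higher genes. All 156 called genes had NBD arrays that did not overlap the control arrays, so no sign could turn when 1 array was left out. A call already requires a change that is large beside the spread, so this lack of overlap is no further support for the calls. In all 4 such fits, 18 rises and 11 falls were called. The rises were RNA45SN5, 7 metallothioneins (MT1G, MT1F, MT1H, MT1X, MT1E, MT2A, MT1HL1), EGR1, JUN, JUND, MSMO1, HMGCS1, INSIG1, SQLE, SREBF2, IDI1 and RIT1. The falls were ID1, ID3, ABCG1, CTSG, AUTS2, STAP1, P2RY8, SELENOW, GRK3, SH2D1A and SELENOH. RIT1, AUTS2, STAP1, P2RY8 and GRK3 fall outside the naming rule and were singled out after their values were seen, and so were SREBF2, SQLE and IDI1. Other list members quoted below, such as FDPS, SLC30A1, FOS, LTA, SMAD7, GPX4 and MDM2, are outside that rule as well. With actin as a covariate the counts were 66 and 224, and 49 of the 54 rises and 96 of the 102 falls were still called. That fit takes its slope from differences within groups, the largest being between the T-ALL1 control arrays (3.16 and 2.05). In CEM the actin difference goes with the peptide, so the fit cannot separate them there.

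**Figure D1:**
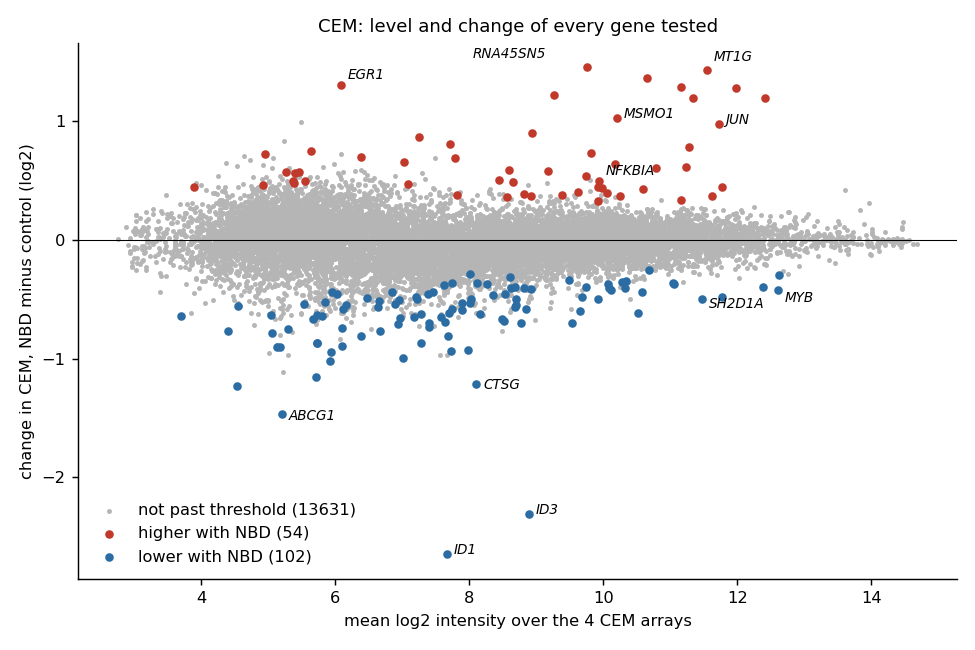
Change with NBD in CEM (log2, vertical axis) against mean log2 intensity over the 4 CEM arrays (horizontal axis) for 13787 genes. Red points are the 54 genes higher and blue points the 102 lower at a limma adjusted p under 0.05, and ID1 and ID3 lie farthest from 0, at -2.65 and -2.31.

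Metallothioneins are small cysteine-rich proteins that bind zinc and copper, and their genes are switched on through the metal-sensing factor MTF1 at metal response elements. For MT1H and MT2A the promoters are shown because both genes rose and each holds several matches to the letters of such an element. They are RefSeq sequences of 250 bases before to 50 after the start, with matches to TGCNCNC (N is any base, either strand) in capitals. MT1H lies at chr16:56669564-56669863 and MT2A at chr16:56608334-56608633, both on the plus strand of GRCh38.p14.
MT1H: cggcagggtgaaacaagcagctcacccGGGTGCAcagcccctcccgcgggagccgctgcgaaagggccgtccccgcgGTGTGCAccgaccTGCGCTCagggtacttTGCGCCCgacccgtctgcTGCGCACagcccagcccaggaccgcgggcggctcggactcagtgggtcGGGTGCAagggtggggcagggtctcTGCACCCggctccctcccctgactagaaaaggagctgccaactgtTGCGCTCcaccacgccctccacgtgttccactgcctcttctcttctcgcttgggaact
MT2A: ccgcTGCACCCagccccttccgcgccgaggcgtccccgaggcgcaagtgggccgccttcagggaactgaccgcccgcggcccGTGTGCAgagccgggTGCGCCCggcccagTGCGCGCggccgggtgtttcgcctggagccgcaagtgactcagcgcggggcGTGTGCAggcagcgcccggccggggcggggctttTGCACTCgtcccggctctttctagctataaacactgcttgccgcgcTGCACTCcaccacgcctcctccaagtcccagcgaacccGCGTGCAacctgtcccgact
Each held 8 matches and the MT1X promoter 4. Of 34796 promoters of that length, 55.9% held at least 1 match, 2.92% at least 4 and 0.0718% at least 8. Promoters of 3 of the 7 metallothioneins that rose were in the table used. MT2A was added to those shown after its values were seen. As the promoters shown were picked with their matches known, the shares are no test of them. A match describes the letters only.

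All 7 rises among 23 genes of metallothioneins and zinc handling were metallothioneins, with no fall, and the list's median change was 0.12 beside -0.01 over all genes. MT1G read 1859 and 1776 on the control arrays and 4534 and 5279 on the NBD arrays, a rise of 1.43 ± 0.11 (2.69-fold; limma adjusted p = 2.08e-05). MT1E read 401 and 404 against 949 and 924, and rose by 1.22 ± 0.08 (limma adjusted p = 5.74e-06). For both genes, each NBD array lay more than 2-fold above each control array. MT1F, MT1H, MT1X, MT2A and MT1HL1 rose by 1.19 to 1.37. All 7 were called in each fit that left out 1 CEM array. Their probe sets, like the main ones of JUN and RNA45SN5, are of the type that may cross-hybridise with close relatives. MT1G had another probe set, not of that type, which read 11.59 and 9.37 with control and 12.38 and 13.93 with NBD. It lay below the filter intensity and was not called (0.33 ± 0.14; limma adjusted p = 0.488 over all probe sets). The other probe sets of MT1E, MT1F and MT1X were called higher, but are of the type that may cross-hybridise. Which metallothioneins rose is therefore uncertain, and this holds for MT1G too. Outside the family, the zinc exporter SLC30A1, another MTF1 target, was 0.26 ± 0.09 (limma adjusted p = 0.208) and MTF1 itself 0.19 ± 0.07 (0.251). MT3 and MT4, members expressed in brain and in squamous epithelium, were 0.10 and 0.20 and did not pass.

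Cholesterol synthesis runs from acetyl-CoA through mevalonate, isoprenoids, squalene and lanosterol, and its genes are driven by SREBP2 (SREBF2), which INSIG1 helps to hold in the endoplasmic reticulum when sterols are plentiful. Of 21 genes on that list, 11 rose and none fell, 19 changes lay above 0, and the median was 0.36. Among all genes, 46.8% of changes lay above 0. Without control array 2, 6 of the 21 were called higher, and the other leave-out fits gave 6 to 7.

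At the head of the pathway, HMGCS1, which makes HMG-CoA, read 348 and 368 with control and 683 and 651 with NBD, and rose by 0.90 ± 0.09 (1.86-fold; limma adjusted p = 0.000119). IDI1, the isomerase that supplies isoprenoids, read 1431 and 1424 against 2162 and 2192 and rose by 0.61 ± 0.07. FDPS, which makes farnesyl diphosphate, rose by 0.34 ± 0.07 (limma adjusted p = 0.0395). Arrays of the same peptide were close in each of these genes and the peptides did not overlap.

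From squalene onward, SQLE, the squalene epoxidase, read 679 and 718 against 1182 and 1137 and rose by 0.73 ± 0.07. MSMO1, a sterol methyl oxidase, had the largest change of the list, with 807 and 841 against 1757 and 1603 and a rise of 1.03 ± 0.10 (2.04-fold; limma adjusted p = 0.000118). LSS, NSDHL, SC5D and DHCR7, which close the lanosterol ring and carry out later steps, rose by 0.45 to 0.81. DHCR7 and LSS passed narrowly (limma adjusted p = 0.0348 and 0.0468), and DHCR7, LSS, SC5D and FDPS were lost when any 1 CEM array was left out. PMVK (-0.23) and LBR (-0.04), the members below 0, did not pass.

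Both regulators rose. INSIG1 read 1907 and 1880 with control and 3438 and 3092 with NBD (0.78 ± 0.09; limma adjusted p = 0.000491), and its other 2 probe sets rose by 0.98 and 0.63. SREBF2 read 162 and 185 against 267 and 293 (0.69 ± 0.09; limma adjusted p = 0.00206). Among 13 genes of fatty acid synthesis, FADS2 and SCD, both desaturases, rose by 0.51 ± 0.08 and 0.40 ± 0.07, none fell, and the median was -0.05. Neither was called without control array 2 (limma adjusted p = 0.0955 and 0.0612). Of 6 LXR targets, which respond to oxysterols, ABCG1, a cholesterol exporter, fell by 1.47 ± 0.18 (2.77-fold; limma adjusted p = 0.00074), from 55.2 and 68.5 to 24.4 and 20.2. Its other 3 probe sets were -0.19, -0.36 and -0.25 and did not pass, so the fall rests on 1 probe set. TFRC, the transferrin receptor and the only call among 14 iron genes, rose by 0.45 ± 0.08, and was lost when any 1 CEM array was left out.

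The promoters of MSMO1, the most changed gene of the list, and SREBF2, its regulator, are shown to set 1 without and 1 with the sterol response element TCACNCCAC (either strand, in capitals). MSMO1 is at chr4:165327419-165327718 and SREBF2 at chr22:41832855-41833154, both on the plus strand of GRCh38.p14, from RefSeq. SREBF2 was added after its values were seen.
MSMO1: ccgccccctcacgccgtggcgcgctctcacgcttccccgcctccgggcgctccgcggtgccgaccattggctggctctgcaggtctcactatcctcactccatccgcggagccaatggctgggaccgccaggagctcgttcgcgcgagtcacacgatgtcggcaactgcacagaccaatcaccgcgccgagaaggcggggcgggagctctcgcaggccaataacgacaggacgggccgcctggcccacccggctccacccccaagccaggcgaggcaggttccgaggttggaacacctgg
SREBF2: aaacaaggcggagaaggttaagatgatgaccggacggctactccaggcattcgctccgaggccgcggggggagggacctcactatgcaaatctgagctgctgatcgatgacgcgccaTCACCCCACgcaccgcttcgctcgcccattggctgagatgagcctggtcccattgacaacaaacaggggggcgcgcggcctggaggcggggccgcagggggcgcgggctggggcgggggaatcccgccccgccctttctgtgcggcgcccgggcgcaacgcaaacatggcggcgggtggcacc
SREBF2 held 1 match and MSMO1 none. It was the only 1 of the 10 cholesterol genes that rose and had a promoter in the table to hold a match, and 1.12% of the 34796 promoters held 1. No match says only that these letters are not in this window.

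**Figure D2:**
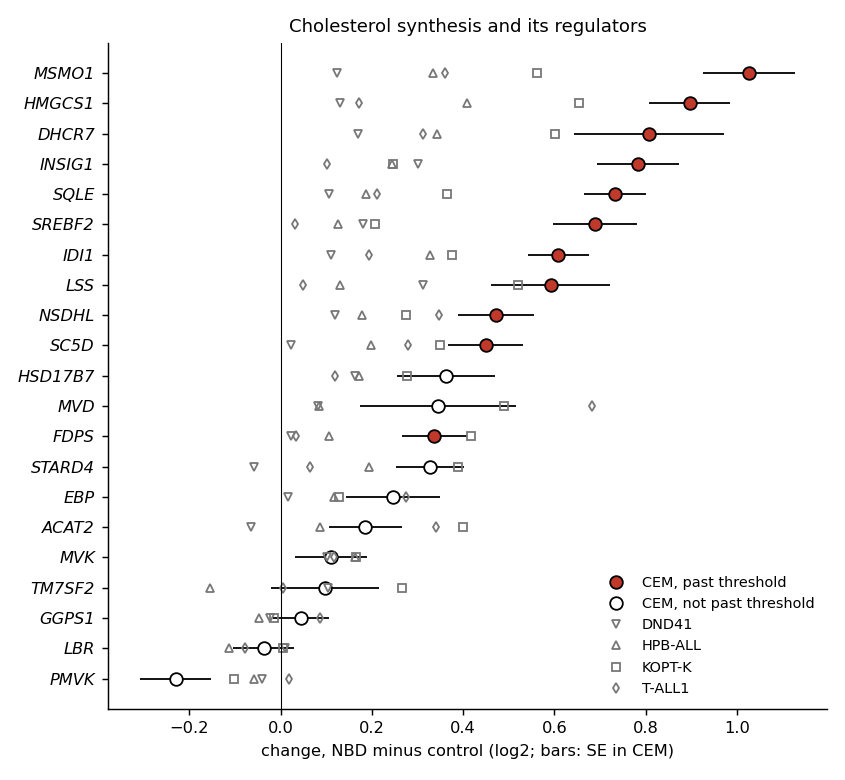
Change with NBD (log2, horizontal axis) of the 21 tested genes of cholesterol synthesis and its regulators. Circles are CEM with the standard error as bars, filled where past the threshold (11 genes), and grey symbols are the changes in the other 4 lines, which for MSMO1 run from 0.12 to 0.56 beside 1.03 in CEM.

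AP-1 is a dimer of JUN and FOS proteins whose genes are early responders to stress and growth signals. Of 30 AP-1 and other immediate-early genes, 4 rose, none fell, and 24 changes lay above 0, beside 46.8% of all genes. The median was 0.20 (0.165 with the actin difference as a covariate). JUN read 2344 and 2476 with control and 4729 and 4739 with NBD, a rise of 0.97 ± 0.09 (1.96-fold; limma adjusted p = 8.94e-05), and its other 3 probe sets were also called higher, by 0.80 to 1.42. JUND read 1950 and 1944 against 3068 and 2902 and rose by 0.62 ± 0.08 (limma adjusted p = 0.000846). In both genes each NBD array was above each control array.

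EGR1, a zinc finger factor induced through MAP kinases, read 42.2 and 44.3 with control and 114 and 100 with NBD and rose by 1.30 ± 0.18 (2.47-fold; limma adjusted p = 0.00242). Of its other 2 probe sets, 1 gave 1.04 (limma adjusted p = 0.12) and 1 gave 0.06. KLF6 rose by 0.40 ± 0.08 and was lost when any 1 CEM array was left out. FOS was 0.67 ± 0.24 (limma adjusted p = 0.226), FOSB 0.52 ± 0.13 (0.101) and ATF3 0.41 ± 0.13 (0.192), so none of these passed. Of 15 MAP kinase phosphatases and feedback regulators, DUSP22 fell by 0.37 ± 0.08 and none rose, and DUSP22 was lost when any 1 CEM array was left out.

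The largest change of all was the fall of ID1. ID proteins lack a DNA-binding region and hold E proteins such as TCF3 (E2A) and TCF12 away from DNA, and in T-ALL E proteins also pair with TAL1 and LYL1. ID1 read 486 and 537 on the control arrays and 75.4 and 87.9 on the NBD arrays, a fall of 2.65 ± 0.15 on the log2 scale (6.28-fold; limma adjusted p = 1.11e-06). ID3 read 1010 and 1099 against 210 and 214 and fell by 2.31 ± 0.11 (4.97-fold; limma adjusted p = 1.74e-07). In both genes the lowest control array was several-fold above the highest NBD array. They were called in every leave-out fit, also without control array 2, at -2.58 and -2.25.

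Of 17 genes on a list of ID inhibitors, E protein partners and related factors, 4 fell and none rose. The median was -0.11 (-0.25 with the actin difference as a covariate). Beside ID1 and ID3 the falls were MYB, a factor of T cell precursors, by 0.43 ± 0.07, and SMAD6, a feedback inhibitor of BMP signalling, by 0.69 ± 0.15 (limma adjusted p = 0.0407). MYB and SMAD6 are neither ID nor E proteins, and each is also counted on another list. MYB read 7210 and 7268 against 5151 and 5643. SMAD6 read 212 and 300 against 164 and 149, and its other 3 probe sets gave 0.45, -0.20 and 0.14, none called, so the probe sets disagree. Neither MYB nor SMAD6 was called without control array 2 (limma adjusted p = 0.106 and 0.424). ID2 was -0.27 (limma adjusted p = 0.528), TCF3 -0.09, TCF12 -0.07 and TAL1 0.07. SMAD6 was the only call among 24 genes of the SMAD and TGF-beta pathway, whose median was 0.00, and SMAD7 was -0.62 ± 0.18 (limma adjusted p = 0.129).

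**Figure D3:**
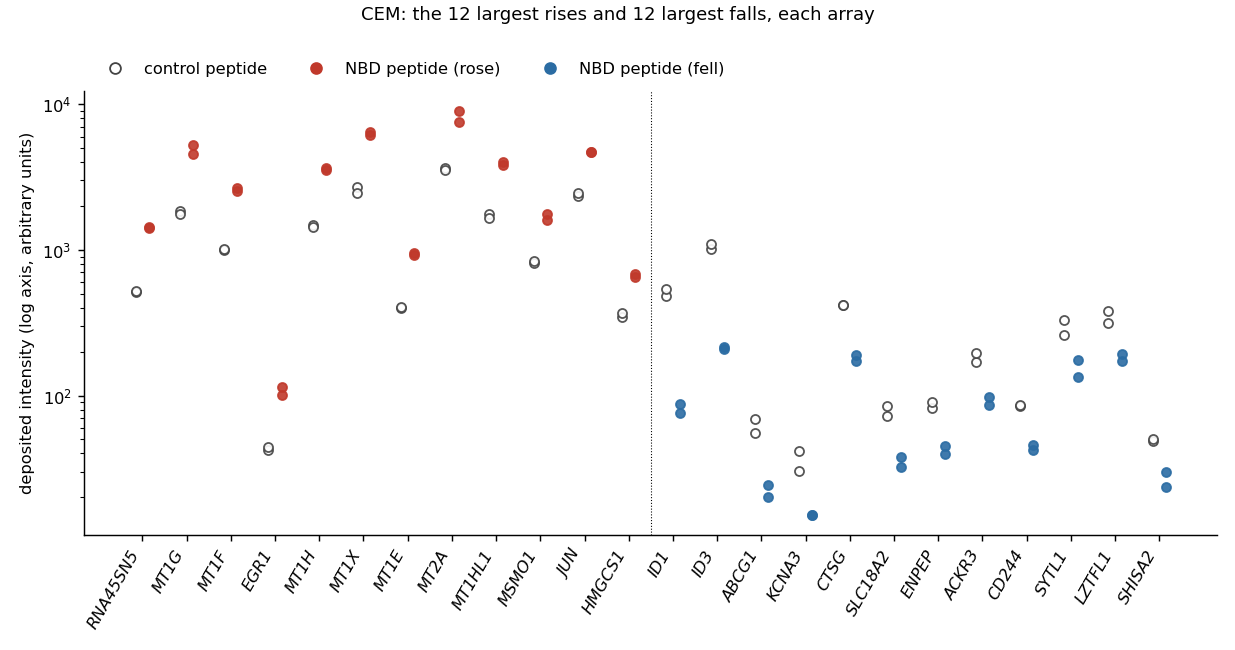
Deposited intensity (log axis, arbitrary units) on each CEM array for the 12 largest rises (left) and 12 largest falls (right) among genes past the threshold. Open circles are the 2 control arrays and filled circles the 2 NBD arrays, and for ID1 they read 486 and 537 against 75.4 and 87.9.

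The peptide is aimed at the IkB kinase, so NF-kB targets were read next. Of 36 tested, 2 rose, none fell, and 23 changes lay above 0, beside 46.8% of all genes. The median was 0.07 (0.037 without control array 1, 0.052 with the actin difference as a covariate). NFKBIA read 799 and 842 with control and 1145 and 1171 with NBD and rose by 0.50 ± 0.08 (1.41-fold; limma adjusted p = 0.00695). RELB, an NF-kB subunit of the alternative pathway, read 42.3 and 34.9 against 69.6 and 60.1 and rose by 0.75 ± 0.17 (limma adjusted p = 0.0496). The peptides did not overlap in either gene, but NFKBIA was lost without either NBD array and RELB without 3 of the 4 arrays.

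Other targets did not pass. The cytokine genes LTA (0.50 ± 0.13; limma adjusted p = 0.102), LTB (0.43 ± 0.12; 0.110) and TNF (0.47 ± 0.32; 0.571) lay above 0. BCL2A1, an anti-apoptotic BCL2 relative, read 187 and 205 against 126 and 112 and was -0.72 ± 0.17 (0.0585). TNFAIP3 (A20), a ubiquitin-editing inhibitor of the pathway, was 0.15 ± 0.07 (0.364) and CYLD 0.07 ± 0.10 (0.814). The other 6 probe sets of CYLD ran from -0.06 to 0.26 and none was called.

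None of the 30 genes of the kinase and its upstream pathway was called by limma (2 at an unadjusted p under 0.05), with a median of -0.05. IKBKB was -0.22 ± 0.12, CHUK 0.07 ± 0.10 and IKBKG 0.13 ± 0.08 (limma adjusted p = 0.461, 0.825 and 0.478). RNF31, of the linear ubiquitin complex, was -0.28 ± 0.20 (0.595). TRAF3, a brake on the alternative pathway, was 0.27 ± 0.11 (0.291), while another of its probe sets read 182 and 200 against 287 and 265 and gave 0.53 (0.0358, adjusted over all probe sets).

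The NFKBIA promoter is shown because the gene is the loop's own target and its kappaB element is well known. It lies at chr14:35404700-35404999 on the minus strand of GRCh38.p14 (RefSeq), and capitals mark the match to the kappaB motif (3 G, any 5 bases, 2 C, either strand).
NFKBIA: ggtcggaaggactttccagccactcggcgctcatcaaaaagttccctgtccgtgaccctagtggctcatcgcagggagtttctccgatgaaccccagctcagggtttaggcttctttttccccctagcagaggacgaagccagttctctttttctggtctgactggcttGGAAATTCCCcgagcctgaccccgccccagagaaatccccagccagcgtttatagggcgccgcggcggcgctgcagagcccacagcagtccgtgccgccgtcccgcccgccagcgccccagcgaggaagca
It held 1 match, and 58.6% of the 34796 promoters held at least 1, so this loose pattern is common.

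Notch receptors are cleaved on ligand binding, and the freed intracellular part acts with RBPJ on HES1, DTX1 and other genes. Of 29 Notch receptors and targets, 1 fell and none rose, with a median of -0.04. That median had no stable sign, at 0.058 without NBD array 1 and 0.029 without control array 1. The fall was LZTFL1, a regulator of ciliary trafficking, from 317 and 381 to 174 and 192, by 0.93 ± 0.15 (limma adjusted p = 0.00871). Without control array 2 it was -0.80 and did not pass. HES1, a repressor, read 187 and 183 with control and 142 and 141 with NBD, a change of -0.39 ± 0.22 (limma adjusted p = 0.49). The arrays of each peptide were close, and the standard error is that shared with the other lines. Another HES1 probe set read 76.4 and 80.2 against 46.9 and 37.9 and was called lower at -0.89 ± 0.15 (limma adjusted p = 0.0215 over all probe sets), so the probe sets share a direction but not the call.

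NOTCH1 read 910 and 858 against 733 and 811, or -0.20 ± 0.09 (limma adjusted p = 0.387). NOTCH3 was -0.10 ± 0.15 (0.828) and the oncogene MYC, a direct Notch target in T-ALL, -0.48 ± 0.21 (0.345). DTX1, a Notch regulator, read 70.9 and 41.9 against 46.6 and 39.6, and its change of -0.34 ± 0.18 turned to 0.036 without control array 1. The LZTFL1 promoter is in the table with 2 start sites, of which 1 held the RBPJ motif TGGGAA on either strand, as did 24.0% of all promoters.

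Of 39 genes of the T cell receptor and its proximal signalling, 34 changes lay below 0 (7335 of all 13787 genes), with a median of -0.19. Only 3 fell and 1 rose, where 0.74% of all genes were called lower and 0.392% higher. Of the 39, 16 (41.0%) had an unadjusted p under 0.05 by limma, beside 13.4% of all genes. SH2D1A (SAP), an adaptor of the SLAM receptors, read 3403 and 3349 with control and 2316 and 2474 with NBD and fell by 0.50 ± 0.06 (1.41-fold; limma adjusted p = 0.000931). SLA, an adaptor that lowers receptor levels, fell by 0.50 ± 0.09 and UBASH3B, a phosphatase of the receptor pathway, by 0.74 ± 0.14. The other UBASH3B probe sets gave -0.36, -0.23, -0.47 and 0.12, none called. PTPN22, a phosphatase that restrains LCK, rose by 0.38 ± 0.08. Only SH2D1A of these was called without control array 2.

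Among 34 T lineage factors and stage markers, MYB, IKZF1 (Ikaros), CD38 and CD99 fell, RAG2 rose, and the median was -0.17. IKZF1 read 2403 and 2425 against 1912 and 1812 (-0.37 ± 0.06; limma adjusted p = 0.0117), and its other 8 probe sets ran from -0.57 to 0.50 with none called. CD38 read 1217 and 1214 against 934 and 948 (-0.37 ± 0.06; limma adjusted p = 0.00825). RAG2, of the recombinase, read 12.96 and 12.6 against 18.04 and 16.77, all below the filter intensity. Without control array 2 neither RAG2 nor any of the 4 falls was called. Of 21 genes of MHC class I and peptide loading none was called by limma (5 at an unadjusted p under 0.05; median -0.15), with CALR, a loading chaperone, nearest at -0.35 ± 0.08 (0.0617). Of 43 interferon-stimulated genes ISG20, an exonuclease, fell by 0.37 ± 0.08 (median -0.11), and was lost when any 1 CEM array was left out.

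Stress and redox groups gave few calls. Of 20 selenoproteins 3 fell and none rose: GPX1, a glutathione peroxidase (910 and 975 against 567 and 594; -0.70 ± 0.10; limma adjusted p = 0.00293), SELENOW (979 and 999 against 669 and 640; -0.60 ± 0.06) and SELENOH (4008 and 4284 against 3017 and 2910; -0.48 ± 0.06). GPX4 was -0.22 ± 0.08 (limma adjusted p = 0.261) and TXNRD1 0.21 ± 0.07 (0.210), and the median of the list was -0.02. GPX1 missed the threshold without control array 2 (limma adjusted p = 0.0528). None of 26 NRF2 targets was called by limma (5 at an unadjusted p under 0.05; median 0.04), and SQSTM1, the autophagy receptor p62, was 0.31 ± 0.09. Nor was any of 37 genes of the integrated stress response (4 at that level; median -0.02), with PPP1R15A, a phosphatase subunit that ends the response, at 0.41 ± 0.13.

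XBP1, a factor of the unfolded protein response, read 452 and 455 against 335 and 243 and fell by 0.67 ± 0.13 (limma adjusted p = 0.0238), and was lost in 3 of 4 leave-out fits. The chaperone HSPA5, which that response induces, was 0.00 ± 0.11, and the median of 22 such genes was -0.11. Of 18 heat shock genes DNAJA1, a cofactor of HSP70, rose by 0.37 ± 0.06 (2783 and 2759 against 3509 and 3657; limma adjusted p = 0.00737; median 0.11), and was not called without control array 2 (0.0955).

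Of 22 p53 targets, CDKN1A (p21), an inhibitor of cyclin-dependent kinases, rose from 101 and 108 to 165 and 164 (0.66 ± 0.14; limma adjusted p = 0.0421) and GADD45A, a DNA damage gene, from 451 and 499 to 762 and 664 (0.58 ± 0.09; limma adjusted p = 0.00589). MDM2 (0.03), BAX (-0.14) and FAS (0.04), other p53 targets, did not pass, and the median was 0.04. CDKN1A was lost when any 1 CEM array was left out. CDKN1A was also the only call among 23 G1 cyclins, CDKs and inhibitors (median -0.01). None of 35 apoptosis regulators was called by limma (4 at an unadjusted p under 0.05; median -0.06), and the largest changes were -0.42 ± 0.22 for the death ligand TNFSF10 and 0.40 ± 0.19 for BIK.

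None of 55 mitotic genes was called by limma (17 at an unadjusted p under 0.05, beside 13.4% of all genes). Of the 55 changes, 50 lay above 0, beside 46.8% of all genes, with a median of 0.11. The highest was that of NUF2, a kinetochore protein, at 0.25 ± 0.10 (limma adjusted p = 0.261), and the lowest that of INCENP at -0.26 ± 0.24. Of 50 DNA replication genes UNG, a uracil glycosylase, fell by 0.53 ± 0.11 (median -0.05). TFRC was the only call among 23 genes of the MYC network (median -0.08). WDR4, a tRNA methylation factor, was the only call among 49 of ribosome biogenesis (-0.81 ± 0.16, list median -0.05). The other WDR4 probe sets gave 0.07 and -0.32, neither called, so the fall rests on 1 probe set. Neither UNG nor WDR4 was called without control array 2 (limma adjusted p = 0.327 and 0.333). Limma called none of 53 cytosolic ribosomal proteins (median -0.03; 2 at an unadjusted p under 0.05), 66 respiratory chain subunits (-0.00; 3) and 37 proteasome subunits (0.05; 9). Over all genes 13.4% had an unadjusted p under 0.05. The same held, with no call, for 34 genes of glycolysis and hypoxia (-0.02; 7), 28 cytokine response genes (-0.06; 5) and 24 histones (0.05; 8). The immunoproteasome subunit PSMB8 was -0.31 ± 0.08 (limma adjusted p = 0.108) and IL2RG, the shared cytokine receptor chain, -0.46 ± 0.15 (0.168).

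**Figure D4:**
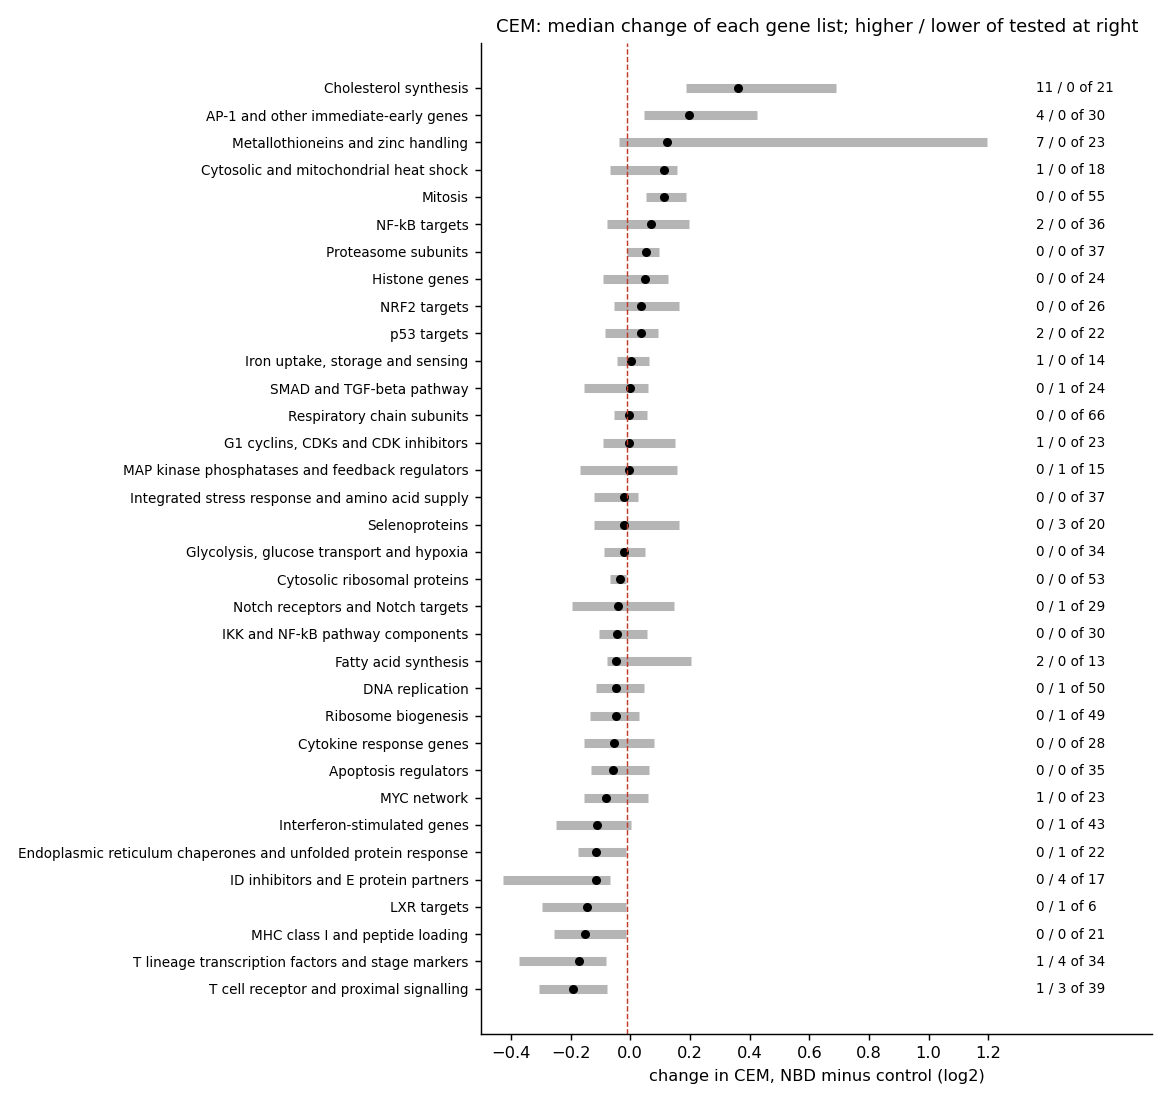
Median change with NBD in CEM (black points, log2) and quartiles (grey bars) of each of 34 gene lists, with the number of members higher and lower of those tested at the right. The dashed line is the median of all genes, -0.01, and cholesterol synthesis has the highest median, 0.36, with 11 of 21 higher.

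Beyond the lists, RNA45SN5, the precursor of ribosomal RNA, had the largest rise. It read 516 and 526 with control and 1423 and 1437 with NBD, a rise of 1.46 ± 0.14 (2.74-fold; limma adjusted p = 0.000118), and its other probe set rose by 1.41. With the actin difference as a covariate the rise was 1.61, but that fit cannot separate RNA integrity from the peptide in CEM. CTSG, a granule protease, read 418 and 421 against 191 and 172 and fell by 1.21 ± 0.12 (limma adjusted p = 0.000156). KCNA3, a potassium channel of T cells, read 30.2 and 41.7 against 15.1 and 15.1 and fell by 1.23 ± 0.21 (limma adjusted p = 0.0119), and without control array 2 it was -0.99 (0.172). SLC18A2, a monoamine transporter, ENPEP, an aminopeptidase, ACKR3, a scavenger receptor of chemokines, CD244, a SLAM receptor, SYTL1 and SHISA2 fell by 0.91 to 1.16. Of these, ENPEP and CD244 were still called without control array 2.

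The other T-ALL lines share no array with CEM, so its calls could be read in them. All calls came from the same fit with 1 spread per gene, which favours genes of small spread in every line. Overlaps of calls are therefore not independent of the CEM calls, and the share of all genes called does not allow for this. Of the 54 genes higher in CEM, 33 were also called higher in the mean effect of the 4, which is 61.1% of the CEM genes and 12.3% of the 268 called higher there (1.94% of genes tested). Of the 102 lower in CEM, 32 were also called lower, 31.4% of the CEM genes and 5.19% of the 617 called lower there (4.48%, and 6.42% in either direction). By sign alone, 48 of the 54 rises (88.9%) lay above 0 in that mean, beside 43.5% of all genes, and 82 of the 102 falls (80.4%) lay below 0, beside 56.5% of all genes. By line, 24 of the 54 rises were also called in KOPT-K (0.892% of all genes called higher there), 12 in HPB-ALL (0.138%), 10 in DND41 (0.733%) and 3 in T-ALL1 (1.15%). Of the 102 falls, 18 were also called in T-ALL1 (2.3% of all genes called lower there), 11 in HPB-ALL (0.646%), 8 in DND41 (1.74%) and 8 in KOPT-K (0.384%). In either direction the lines had 1.28% (KOPT-K), 0.783% (HPB-ALL), 2.47% (DND41) and 3.45% (T-ALL1) of genes called. Over all genes the CEM effect correlated at 0.34 with that of HPB-ALL, 0.20 with T-ALL1, 0.13 with KOPT-K and 0.01 with DND41, as a description over genes that are not independent.

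The difference between the CEM effect and the mean of the other 4 effects was tested in the same fit, and 14 genes had a higher (0.102%) and 26 a lower effect in CEM (0.189%), together 0.29%. ID1 fell by 2.65 in CEM against a mean of -1.15 elsewhere, a difference of -1.50 ± 0.17 (limma adjusted p = 0.00259), and no other line went below -1.94. ID3 differed by -1.05 ± 0.12 (limma adjusted p = 0.00259), although T-ALL1, at -2.86, lay below CEM. CTSG, KCNA3, SHISA2, ABCG1, ENPEP and ACKR3 also had a lower effect in CEM, with differences of -1.56 to -0.90. EGR1 rose in CEM and averaged -0.00 elsewhere, from -1.95 in DND41 to 1.01 in HPB-ALL, with a difference of 1.30 ± 0.20 (limma adjusted p = 0.0162).

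Cholesterol genes were 5 of the 14 with a higher effect in CEM: MSMO1 (0.68 ± 0.11 more than elsewhere), HMGCS1 (0.56 ± 0.10), INSIG1 (0.56 ± 0.10), SQLE and SREBF2. All 5 averaged above 0 in the other lines too, by 0.14 to 0.34. MT1E differed by 0.52 ± 0.09 and the other metallothioneins did not pass (differences of 0.20 to 0.55). RNA45SN5 differed by 1.14 ± 0.16 (limma adjusted p = 0.0092), with 0.60 in DND41 and 0.58 in T-ALL1. JUN went the other way, at -0.45 ± 0.10 (0.110), with a change of 3.35 in KOPT-K. Without control array 2 only 1 higher and 5 lower differences were called, without NBD array 1 none and 8, and without NBD array 2 1 and 7. Without control array 1 they were 22 and 37. The T-ALL1 control arrays had actin differences of 3.16 and 2.05, and without that line 15 higher and 39 lower differences were called.

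On the Notch list, 1 gene passed the test of the difference. CD300A, an inhibitory receptor, read 212 and 236 against 185 and 190 in CEM (-0.25 ± 0.12; limma adjusted p = 0.393) and averaged -1.21 in the other lines, a difference of 0.96 ± 0.14 (limma adjusted p = 0.0111). HES1 averaged -1.27 elsewhere and its difference of 0.88 ± 0.25 did not pass (0.213), nor did that of NOTCH3 (0.76 ± 0.17; 0.0982). LZTFL1 differed by 0.00 ± 0.17 and NFKBIA by 0.21 ± 0.09 (0.413), neither past the threshold.

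**Figure D5:**
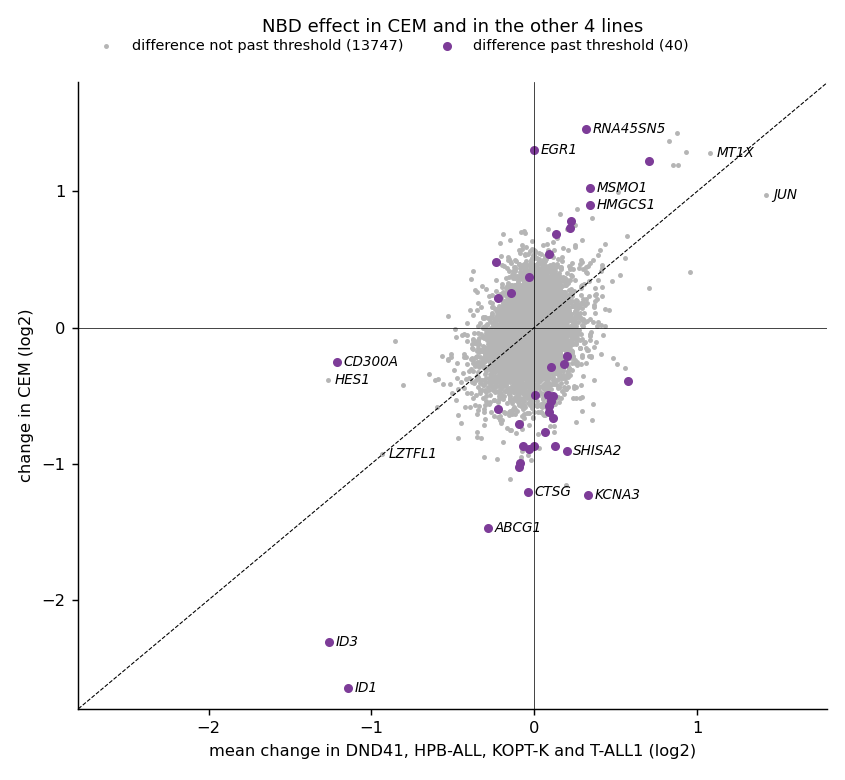
Change with NBD in CEM (vertical axis, log2) against the mean change in the other 4 lines (horizontal axis, log2) for 13787 genes. Purple points are the 40 genes whose difference passed the threshold, the dashed line marks equal change, and ID1 lies at -2.65 in CEM and -1.15 elsewhere.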

How the data were processed

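RNA of each group was isolated on silica columns, and 20 ng was amplified in a two-cycle kit and labelled with biotin, per the labels' protocols. The authors deposited 1 linear intensity per probe set and array (54675 probe sets), which the submitters' processing notes credit to RMA, with no version. Intensities were taken to log2 with no pseudocount. The columns of KOPT-K and T-ALL1 hold up to 7 decimals and the others 2, so levels were not compared across lines. Gene names came from GEO's platform annotation: 41097 probe sets had 1 gene, 1801 several and 11777 none, and only the first were used, with 41048 found in the gene table of GRCh38.p14. Each of 19775 genes was read from its brightest probe set over 20 arrays and kept at an intensity of 31.96 (the median of all values) or more on 2 arrays, which left 13787. Some list genes are not reported here.

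limma 3.58.1 in R 4.3.3 (lmFit, eBayes) fitted 1 mean per line and peptide with a shared spread (10 residual and 3.42 prior degrees of freedom), with Benjamini-Hochberg adjustment over all genes at 0.05. Arrays have no read depth, so their number limits the precision. On simulated data of 13787 genes with 200 changed, the CEM test recovered 47% of changes of 0.5 and 93% of changes of 1 (log2), with 6 unchanged genes called. The difference from the other lines recovered 41% and 90%, with 6 called. The simulated noise was independent between genes, with no shift of a whole array. It therefore leaves out the way CEM control array 2 stood apart, and the false calls in the real data may be more. The genes, lists and rules were chosen with earlier results of these data known. Named were the 12 largest rises and falls, the 6 largest differences from other lines each way, up to 4 called members of each list (or the 2 largest where none was called), and 14 genes always: NFKBIA, TNFAIP3, CYLD, HES1, IKBKB, CHUK, IKBKG, NOTCH1, NOTCH3, DTX1, MYC, JUN, ID1 and ID3. Other list members were quoted beside these genes, outside that rule. Motifs were searched in RefSeq promoters, and the LZTFL1 promoter is described but not printed. Alternatives changed the normalization, filter, probe set rule, pseudocount, prior, samples sharing the spread, replicate block, actin covariate and each CEM array in turn.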

Additional observations from a re-analysis of the deposited data

Results flagged for a closer look

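The NBD effect in CEM differed from the mean effect of the other 4 lines in 21 of the 97 genes that the naming rule chose. The test was of the difference itself (limma, adjusted p under 0.05 over 13787 genes), and 0.29% of all genes passed. That rule also took the largest differences from other lines. KCNA3, ID1, ABCG1, CTSG, SHISA2, ID3, EGR1, RNA45SN5, CD300A, LINC00674, MSMO1 and INSIG1 were named at least in part for their differences. The count of 21 is therefore no measure of how often named genes differ. Of the 21, 11 had a lower effect in CEM. The differences (log2) were -1.56 for KCNA3, -1.50 for ID1, -1.19 for ABCG1, -1.17 for CTSG, -1.11 for SHISA2, -1.05 for ID3, -0.93 for ENPEP, -0.90 for ACKR3, -0.78 for XBP1, -0.50 for SH2D1A and -0.38 for SELENOW. The other 10 had a higher effect in CEM. Their differences were 1.30 for EGR1, 1.14 for RNA45SN5, 0.96 for CD300A, 0.72 for the noncoding RNA LINC00674, 0.68 for MSMO1, 0.56 for INSIG1, 0.56 for HMGCS1, 0.52 for MT1E, 0.41 for DNAJA1 and 0.40 for the proteasome subunit PSMA3. CD300A, LINC00674 and PSMA3 were not called in CEM itself. LINC00674 read 11.2 to 19.4 in CEM, below the filter intensity of 31.96 on all 4 arrays, so its difference is that of a dim probe set. The NBD arrays of KCNA3, ABCG1 and SHISA2 were also below that intensity, and so was 1 control array of KCNA3. The genes singled out after their values were seen also held 7 that passed this test, with differences of 0.55 for SREBF2, 0.52 for SQLE, 0.45 for RIT1, -0.83 for AUTS2 (dim on all 4 arrays), -0.71 for P2RY8, -0.67 for GRK3 and -0.62 for STAP1.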

How the results depend on the processing

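Left out in turn, the 4 CEM arrays gave 21 to 89 genes higher and 16 to 128 lower, and 0 to 22 higher and 5 to 37 lower differences from the other lines; a lone array is then assumed to vary like other groups. The 4 CEM arrays alone gave 4 genes higher and 2 lower; the difference from the other lines cannot be tested on them. With CEM, DND41 and HPB-ALL only, 203 were lower and 23 differences higher; without T-ALL1, 199 were lower. A pseudocount of 16 gave 172 lower, with 22 and 57 differences. The trended robust prior gave 87 higher, with 46 and 51 differences. The actin covariate gave 224 lower and 9 higher differences. Median centring gave 5 and 14 differences, no filter 5 and 13, and the mean of all probe sets 9 higher. The replicate numbers did not pair the samples (r = -0.0451 in CEM between deviations of the same number), and the replicate block gave 18 and 12 genes, with 0 and 3 differences. The cause of these shifts was not tested.

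Among named genes that were not called, signs turned for INCENP (0.026 with the actin covariate) and when 1 CEM array was left out, over ranges of -0.12 to 0.49 for PAX5, -0.53 to 0.21 for EPCAM, -0.0030 to 0.14 for CHUK and -0.72 to 0.036 for DTX1. Of 97 named genes, those that kept their sign and side of the threshold numbered 50 with the CEM arrays alone and 62 with the replicate block. Leaving out 1 CEM array kept 65 (control array 2), 68 and 69 (NBD arrays 1 and 2) and 83 (control array 1). No filter kept 88, median centring 90, quantile normalization 93 and the actin covariate 93, and the mean of all probe sets 79 of 94. Of 38 list medians, 11 to 19 moved by more than the replicate spread when 1 CEM array was left out, 22 with the actin covariate and 18 under quantile normalization. Among the 34 lists without the cell type markers, 10 medians turned sign when 1 array was left out: fatty acid synthesis, G1 regulators, glycolysis, iron, MAP kinase phosphatases, Notch, respiratory chain, SMAD, selenoproteins and p53 targets. Of 76 other probe sets of called named genes, 66 shared the sign and 12 were called the same way.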

Other observations

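Receptors of the SLAM family and the adaptors SH2D1A and SH2D1B were gathered after their values were seen, so the following is a description. SLAM receptors sit on lymphocytes, mostly bind their own kind on neighbouring cells, and signal through SH2D1A (SAP). Of 11 family members, 8 were tested and 3 (SLAMF7, SLAMF8, SH2D1B) lay below the filter. SH2D1A, CD244, CD84 and CD48 fell, and none rose, where 0.74% of all genes were called lower and 0.392% higher. CD84 read 448 and 482 with control and 277 and 304 with NBD, a change of -0.68 ± 0.10 (limma adjusted p = 0.00393). CD48, the ligand of CD244, read 973 and 966 against 693 and 700, a change of -0.48 ± 0.08 (limma adjusted p = 0.00829). CD244 read 84.1 and 85.4 against 46.0 and 42.0. SLAMF1 (-0.02), LY9 (-0.05), SLAMF6 (0.15) and SLAMF9 (0.45; limma adjusted p = 0.131) did not pass. Without control array 2, SH2D1A and CD244 were called and CD84 (0.0656) and CD48 (0.0806) were not. SH2D1A differed from the other lines (limma adjusted p = 0.00869), and CD244, CD84 and CD48 did not pass that test (0.126, 0.123 and 0.196).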
